A study of Mus musculus with 4 samples.

Results

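Interferon regulatory factors are a family of transcription factors that share a DNA-binding domain and recognise GAAA-containing sites, among them the interferon-stimulated response element. The 8 family members examined are Irf1, Irf2, Irf3, Irf4, Irf5, Irf7, Irf8 and Irf9. They were taken by symbol from the 17956 single loci of the deposited expression table, and all 8 had a locus that passed the filter on low values, which 13764 loci passed. Transcripts were measured by RNA sequencing in bone-marrow Lin-Kit+ cells of C57BL/6 mice, a fraction without markers of mature blood lineages and with the Kit receptor that holds stem and progenitor cells. There were 2 libraries from Asxl1-/- mice (KO) and 2 from wild-type mice (WT), and ASXL1 is a chromatin regulator often mutated in human myeloid malignancy. Age, the way the deletion was made, and whether each library came from a separate animal are not stated in the labels.

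Family members divide by role. IRF3 and IRF7 lie at the end of nucleic acid sensing and switch on interferon genes, and IRF5 acts beside them downstream of Toll-like receptors. IRF9 is the DNA-binding subunit of the transcription factor complex that forms when interferon binds its receptor, and Irf7 is itself a target of that complex. IRF1 is induced by interferon gamma and IRF2 competes with it for the same sites. IRF4 and IRF8 bind DNA together with partners such as PU.1 and direct blood cell fate: IRF8 is required for monocytes and dendritic cells and restrains granulocyte output, and IRF4 acts in B cells, plasma cells and dendritic cells.

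The libraries held 83586916 and 76688583 reads in KO and 46597871 and 49764454 in WT. Asxl1 itself had normalised read counts of 146 and 135 in KO, against 9742 and 9472 in WT. Xist was high in both libraries numbered 1 and Y-linked transcripts in both numbered 2. Differences between same-numbered libraries are therefore given for the members that passed the test and for Irf8. The split was less clean in WT: the locus of Xist and Tsix had 2123 in WT replicate 2, against 147 in KO replicate 2. In the libraries numbered 1 it had 103006 (WT) and 89290 (KO). The source of the Xist reads in WT replicate 2 was not tested. Kit was present in every library, at 18483 and 18889 in KO against 17739 and 16149 in WT. Markers of the neutrophil lineage were also abundant, although the Lin- gate should deplete mature neutrophils. Their summed level over 12 markers was 2132740 and 1995330 in KO, against 1052680 and 1173580 in WT. None was at 0, and 11 of the 12 rose, beside 11.9% called higher over all tested loci. Which stage of neutrophil maturation these transcripts came from was not tested, nor was their part in the results below. In such bulk samples, fewer cells of a type and less RNA per cell cannot be told apart.

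Promoter stretches of 3 members are shown because they hold a sequence match to a site through which interferon signalling is known to act on genes. They were read from RefSeq (GRCm38.p6) within the 250 bases before each annotated start. Capitals mark matches, on either strand, to the interferon-stimulated response element (ISRE, read as GAAA, any 2 bases, GAAA), the composite PU.1 and IRF element (EICE, read as GGAA, any 2 bases, GAAA) or the STAT-binding gamma-activated site (GAS, read as TTC, any 3 bases, GAA). The Irf1 stretch (chr11:53769909-53769947, plus strand) holds 1 GAS. The Irf2 stretch (chr8:46739495-46739544, plus strand) holds an EICE that overlaps an ISRE, followed by a GAS. The Irf8 stretch (chr8:120736172-120736228, plus strand) holds 2 GAS matches.
Irf1: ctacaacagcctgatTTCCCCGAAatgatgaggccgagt
Irf2: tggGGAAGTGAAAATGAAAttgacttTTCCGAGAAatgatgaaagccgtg
Irf8: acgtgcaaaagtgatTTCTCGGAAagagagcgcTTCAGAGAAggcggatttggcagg

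All 8 members had an entry, with 11 annotated promoters between them, and the promoters of Irf3, Irf4, Irf5, Irf7 and Irf9 held none of the 3 motifs in that window. Among all 32851 RefSeq promoters, 2.98% held an ISRE, 2.301% an EICE and 7.02% a GAS. The window of Irf7, the member with the largest change, is shown whole (chr7:141266425-141266674, minus strand), with the single GAAA block, here on the opposite strand, in capitals. That block lies at the edge next to the annotated start. The search stopped at the start, so a match that runs past it would be missed. At least 1 such block occurs in 86.4% of all promoters.
Irf7: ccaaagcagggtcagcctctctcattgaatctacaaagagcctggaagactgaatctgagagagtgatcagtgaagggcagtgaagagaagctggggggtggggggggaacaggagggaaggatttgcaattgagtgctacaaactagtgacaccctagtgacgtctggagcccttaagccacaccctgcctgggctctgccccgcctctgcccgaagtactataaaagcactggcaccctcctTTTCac

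Irf7 and Irf9, the members most directly tied to the type I interferon response, fell in KO, Irf4 rose, and the locus that holds Irf3 fell slightly. In total 1 of the 8 members was higher and 3 were lower (adjusted p under 0.05, limma). Over all tested loci 11.9% were called higher, 8.97% lower and 20.9% in either direction. The libraries of the genotypes did not overlap at 66.1% of them. Values are the deposited normalised read counts, fold changes are log2(value + 1) of KO over WT ± SE, and ± beside a mean is the SD over n = 2 libraries.

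**Figure D1:**
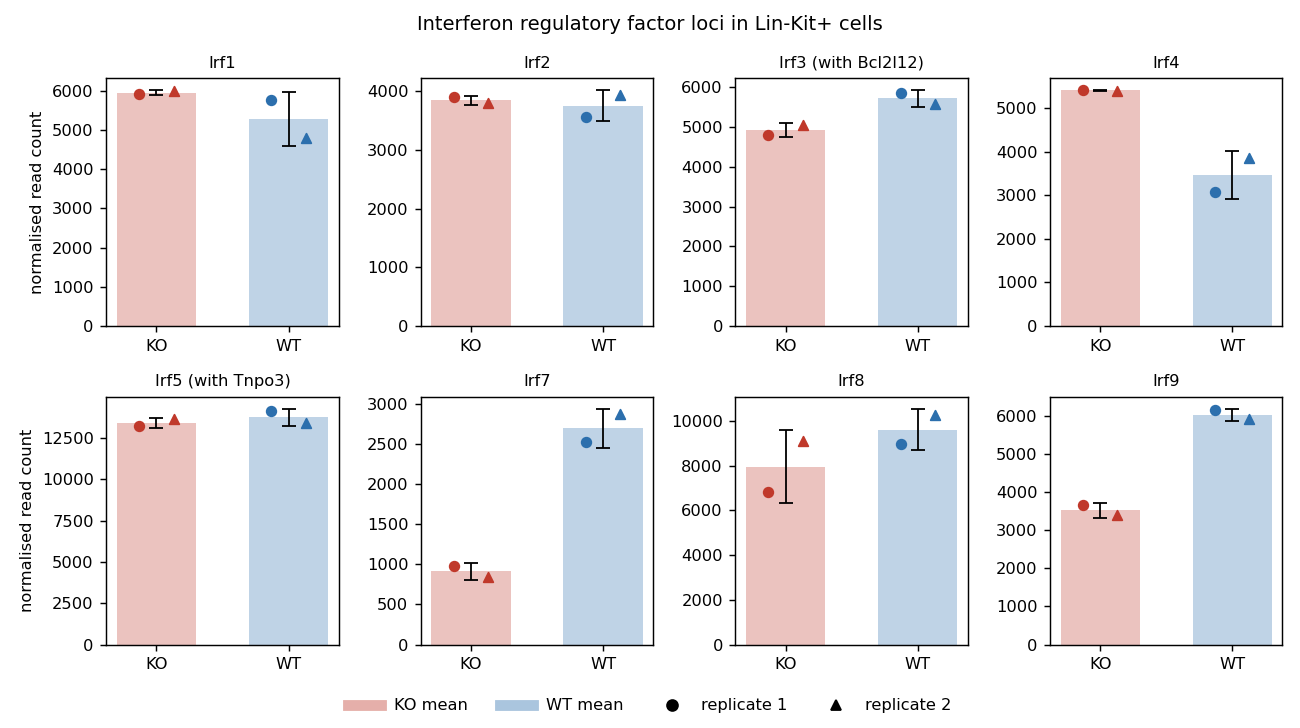
Normalised read count (vertical axes, each from 0) of the 8 IRF loci in KO (left) and WT (right) libraries; bars are means, error bars the SD over 2 libraries, and points single libraries. Irf7 and Irf9 lie lower and Irf4 higher in both KO libraries than in either WT library, whereas the KO and WT points of Irf2, Irf5 and Irf8 overlap.

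Irf7, which encodes the factor that amplifies type I interferon production (chromosome 7, 148449087 to 148452300, mm9), had normalised read counts of 983 and 840.0 in KO libraries against 2526 and 2869.8 in WT libraries. Both KO libraries lay below both WT libraries, and the mean was 912 ± 101 in KO and 2698 ± 243 in WT. The log2 fold change was -1.57 ± 0.11 (adjusted p = 0.00157, limma), a WT level 2.96-fold that of KO (-1.36 between the libraries numbered 1 and -1.77 between those numbered 2). Behind these values were 1297 and 1018 reads in KO and 1950 and 2353 in WT, so counting error alone was at most 3.13% of a value. In absolute log2 fold change Irf7 stood at percentile 97.2 of all tested loci.

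Irf9, the DNA-binding subunit of the interferon-activated complex (chromosome 14, 56222821 to 56228867, mm9), had 3674 and 3396 in KO against 6156 and 5935 in WT. The groups did not overlap, as was the case for 66.1% of all tested loci. Mean levels were 3535 ± 197 in KO and 6045 ± 156 in WT, a log2 fold change of -0.77 ± 0.06 (adjusted p = 0.00185, limma). Same-numbered libraries gave -0.74 and -0.81. The number of Irf7 reads per Irf9 read was 0.268 and 0.247 in KO against 0.410 and 0.484 in WT, a ratio that does not depend on library scaling, so Irf7 lay lower in KO relative to Irf9 as well.

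Irf3, the constitutively present sensor-activated factor, shares a merged locus with AK087248 and Bcl2l12 (chromosome 7, 52242292 to 52258218, mm9), and the reads cannot be divided between the genes. The locus had 4811 and 5051 in KO against 5866 and 5572 in WT, without overlap. Its log2 fold change was -0.21 ± 0.06 (adjusted p = 0.0494, limma), at the edge of the threshold. Same-numbered libraries gave -0.29 and -0.14. The call was lost without KO replicate 1 (adjusted p = 0.089), without WT replicate 1 (adjusted p = 0.282) and without WT replicate 2 (adjusted p = 0.143), and with edgeR and TMM scaling (adjusted p = 0.0562).

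Irf5 likewise shares a locus, with the nuclear import gene Tnpo3 (chromosome 6, 29476732 to 29559607, mm9). The merged locus had 13215 and 13643 in KO against 14119.5 and 13396 in WT, with overlapping groups. The log2 fold change of -0.03 ± 0.05 did not pass (adjusted p = 0.653, limma), and its 95% interval ran from -0.16 to 0.09.

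Irf4 (chromosome 13, 30841126 to 30858796, mm9) was the member that rose. It had 5406 and 5398 in KO against 3069 and 3843 in WT, with both KO libraries above both WT libraries. The mean was 5402 ± 5.64 in KO and 3456 ± 547 in WT, a 1.57-fold difference (log2 0.65 ± 0.11, adjusted p = 0.0120, limma); same-numbered libraries gave 0.82 and 0.49.

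Irf8 (chromosome 8, 123260275 to 123280592, mm9) had 6806 and 9119.8 in KO against 8959.7 and 10279 in WT, so the groups overlapped and the KO libraries differed most between themselves of all members. The log2 fold change was -0.28 ± 0.14 (adjusted p = 0.200, limma), with a 95% interval from -0.63 to 0.06. Same-numbered libraries gave -0.40 and -0.17, both negative. With a block on that number, which rests on 2 pairs, Irf8 was called lower (adjusted p = 0.0279, limma). It passed the threshold without KO replicate 2 (-0.50, adjusted p = 0.00919), which leaves the lower KO library, and not without KO replicate 1 (adjusted p = 0.577). The number of Irf4 reads per Irf8 read was 0.794 and 0.592 in KO against 0.343 and 0.374 in WT.

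Irf1 (chromosome 11, 53583515 to 53591876, mm9) had 5901 and 5989 in KO against 5750.4 and 4787 in WT. The KO libraries were above both WT libraries, but the difference of 0.18 ± 0.09 did not pass (adjusted p = 0.205, limma; 95% interval -0.04 to 0.40). Irf2 (chromosome 8, 47825098 to 47932812, mm9) had 3895 and 3793 in KO against 3565 and 3939 in WT, with overlapping groups (0.04 ± 0.07, adjusted p = 0.737, limma; 95% interval -0.13 to 0.21). For neither gene did the interval reach a change of the size seen for Irf9.

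**Figure D2:**
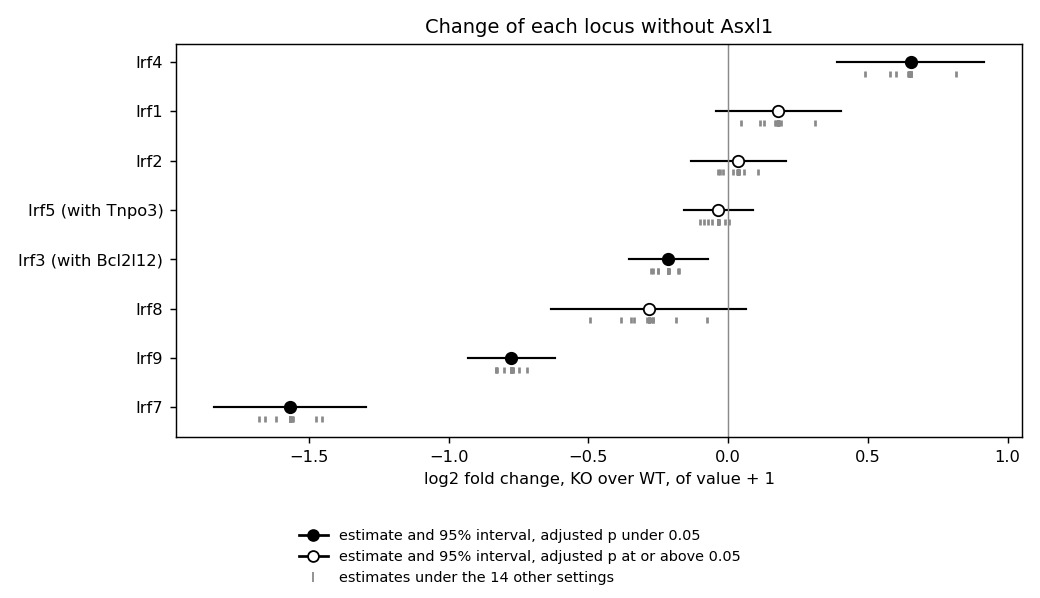
Log2 fold change of KO over WT (horizontal axis) for each IRF locus, ordered from the highest, with its 95% interval; filled points passed the adjusted p threshold of 0.05 and grey ticks are the estimates under 14 other settings. Irf7 (-1.57), Irf9 (-0.77) and Irf4 (0.65) lie clear of 0 under every one of these settings, while Irf1, Irf2, Irf5 and Irf8 have intervals that hold 0.

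Levels of different genes were compared per length for the 6 members with a locus of their own, as RPKM, the reads per kilobase of annotated exons (GENCODE vM21) scaled to library depth. In KO the order was Irf8 (36.6 ± 7.55), Irf1 (28.1 ± 0.32), Irf2 (24.3 ± 0.44), Irf9 (18.0 ± 0.99), Irf4 (17.9 ± 0.0045) and Irf7 (6.02 ± 0.66). In WT it was Irf8 (46.3 ± 4.30), Irf9 (32.2 ± 0.96), Irf1 (26.1 ± 3.48), Irf2 (24.8 ± 1.65), Irf7 (18.6 ± 1.61) and Irf4 (11.98 ± 1.85). Irf9 therefore stood above Irf1 and Irf2 in WT and below them in KO, and Irf4 and Irf7 exchanged places at the bottom. Irf9 and Irf4 in KO, and Irf1 and Irf2 in WT, did not differ beyond the spread of their libraries. Irf7 took 2.20% and 1.78% of the reads of all member loci in KO against 5.05% and 5.67% in WT, and Irf4 took 12.1% and 11.4% in KO against 6.14% and 7.59% in WT.

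Several cytosolic sensors that lead to IRF activation were lower in KO, and both kinase genes whose products phosphorylate IRF3 and IRF7 were higher. Of 22 tested receptors, adaptors and kinases, 3 were higher and 6 lower, with a median of -0.17 beside -0.01 for all tested loci. Over all tested loci 11.9% were called higher and 8.97% lower, so the higher count is near the share of all loci. The log2 fold change was -2.42 ± 0.20 for Zbp1, a sensor of Z-form nucleic acids, -1.55 ± 0.15 for the locus with the helicase gene Dhx58, -0.81 ± 0.08 for the RNA sensor gene Ddx58 (RIG-I) and -0.58 ± 0.08 for its relative Ifih1. The STING gene Tmem173 (-0.58 ± 0.07) and the adaptor gene Mavs (-0.39 ± 0.09) also fell, while the endosomal receptor genes Tlr7 (-0.22 ± 0.10) and Tlr9 (-0.27 ± 0.16) did not pass. Tbk1, which encodes a kinase of IRF3, had 5991 and 5908 in KO against 5061 and 5070.0 in WT (0.23 ± 0.05). The related kinase gene Ikbke rose by 0.31 ± 0.07, and Tank, a scaffold of both kinases, by 0.25 ± 0.06. No member of this list was called higher without WT replicate 1 or without WT replicate 2.

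Among interferon receptors, JAKs and STATs 1 of 9 was higher and 4 were lower (median -0.12), beside 11.9% called higher and 8.97% lower over all tested loci. Stat2, a partner of IRF9 in the interferon-activated complex, had 2871 and 2674 in KO against 3497 and 3578 in WT (-0.35 ± 0.07). Both KO libraries lay below both WT libraries, while the genotypes did not overlap, in either direction, at 66.1% of all tested loci. The receptor genes Ifngr2 (-0.27 ± 0.06) and Ifnar1 (-0.23 ± 0.06) fell too, and Jak2 rose by 0.27 ± 0.05. Leaving out either WT library reduced the lower count to 1 and the higher count to 0, and leaving out KO replicate 1 reduced the lower count to 2.

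Interferon genes themselves were hardly detected. Of 19 named ligand genes 6 had a row, and 1 of them, Ifng, passed the filter. It had 19 and 10 reads in KO and 10 and 20 in WT (-0.66 ± 0.54, adjusted p = 0.42, limma). The other 5 rows had between 0 and 4 reads in any library.

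Genes that IRF9 activates were lower almost throughout: 18 of 20 fell and 0 rose, with a median of -1.92. The counts of this list and the next stand beside 8.97% called lower and 11.9% higher over all tested loci. Ifi44 had 87.2 and 60.2 in KO against 763 and 807 in WT (-3.42 ± 0.22). Ifit1, which binds foreign RNA, had 80.3 and 45.4 in KO against 578 and 662 in WT (-3.33 ± 0.29), and Oasl2 (-2.73 ± 0.12) and Rtp4 (-2.71 ± 0.19) followed. The 2 that did not pass were Ifit2 (0.03 ± 0.06) and Isg20 (0.15 ± 0.11). Genes of the interferon gamma response that IRF1 activates were lower as well, although Irf1 did not pass the test: 13 of 19 tested loci fell and 0 rose (median -0.80). The GTPase genes Gbp3 (-1.25 ± 0.09) and the merged locus of Gbp1 and Gbp5 (-1.63 ± 0.11), the GTPase gene Irgm1 (-1.26 ± 0.08) and the MHC class I activator gene Nlrc5 (-1.25 ± 0.33) fell most. Gbp genes are close copies, so how the counting divided their reads is uncertain. Nlrc5 had 1814 and 1549 in KO against 5789 and 2730 in WT, was -0.70 without WT replicate 1, and lost its call in 3 of 14 other settings (limma-voom, no filter on low values, and without KO replicate 2; adjusted p up to 0.0706). The chemokine genes Cxcl10 (-0.06 ± 0.28) and Cxcl9 (-1.65 ± 0.70), Socs1 (0.17 ± 0.18), Ciita (-0.29 ± 0.34), Tap1 (-0.69 ± 0.21) and B2m (-0.61 ± 0.25) did not pass. Both lists were drawn up with the fall of interferon-stimulated genes in these data already known.

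**Figure D3:**
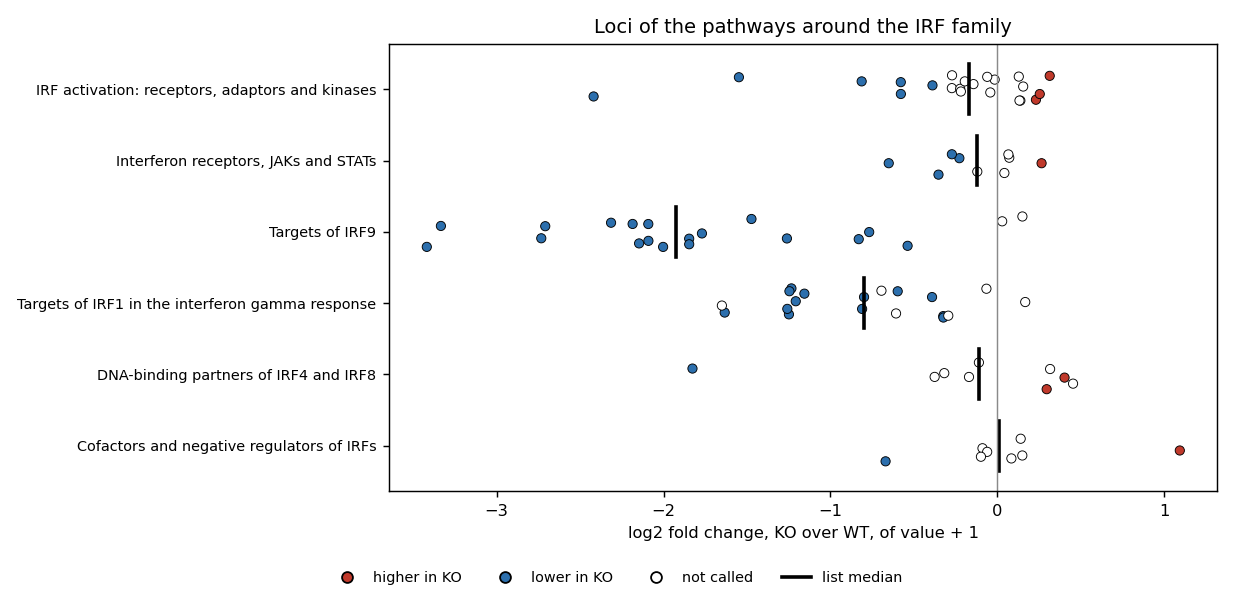
Log2 fold change of KO over WT (horizontal axis) of every tested locus in 6 lists around the IRF family; red points were higher in KO, blue points lower, white points not called, and black bars are list medians. The targets of IRF9 (median -1.92) and of IRF1 (median -0.80) lie mostly left of 0, while loci of the other 4 lists lie on both sides.

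Promoter stretches with ISRE matches are shown for several of these targets, again from RefSeq (GRCm38.p6), with every match on either strand in capitals. Ifit1 (chr19:34640775-34640823, plus strand) and Isg15 (chr4:156200865-156200906, minus strand) hold repeated blocks, Oas1a (chr5:120907526-120907555, minus strand) and Irgm1 (chr11:48871425-48871460, minus strand) hold overlapping pairs, and Gbp2 (chr3:142620594-142620623, plus strand) holds a single match. Socs1 (chr16:10785594-10785629, minus strand), whose transcript did not pass the test, is given for comparison.
Ifit1: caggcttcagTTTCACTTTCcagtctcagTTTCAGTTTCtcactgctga
Isg15: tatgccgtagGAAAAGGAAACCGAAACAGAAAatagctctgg
Oas1a: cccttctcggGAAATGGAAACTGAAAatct
Gbp2: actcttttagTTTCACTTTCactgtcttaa
Irgm1: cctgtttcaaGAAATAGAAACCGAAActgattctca
Socs1: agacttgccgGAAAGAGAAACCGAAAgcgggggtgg

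Of the listed IRF9 targets 15 had a promoter entry and 6 of these held an ISRE. Of the listed IRF1 targets 15 had an entry and 8 held an ISRE. Among these, Gbp2, Gbp3, the Gbp5 locus and Irgm1 were lower, B2m, Cxcl10 and Socs1 were not called, and Gbp7 had no row. Among all genes with a promoter entry 3.46% held an ISRE. Isg15 was -2.19 ± 0.24, Oas1a -2.31 ± 0.11 and Gbp2 -1.21 ± 0.12 on the log2 fold change scale. Across all loci that carry 1 name found in the promoter table, 234 had an ISRE and 7127 had none. Of those with an ISRE 16.7% were called lower and 8.12% higher, and of those without 9.08% were called lower and 12.4% higher. The median log2 fold change was -0.07 with an ISRE and -0.01 without. These are descriptions, and a match in the window is not shown to be a bound site.

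Of 9 tested partners of IRF4 and IRF8, 2 rose and 1 fell (median -0.11), beside 11.9% called higher and 8.97% lower over all tested loci. Counts this small cannot be set apart from those shares. The PU.1 gene Sfpi1 had 10951 and 11924 in KO against 8819.8 and 8464 in WT (0.40 ± 0.06), Ikzf1, the Ikaros gene, rose by 0.30 ± 0.05, and Batf2 fell by 1.83 ± 0.44, on 8 to 24 reads in any library. Batf2 was not called without KO replicate 2, without either WT library or with DESeq2, and 1 of the rises was left without WT replicate 1 or WT replicate 2. Among cofactors and negative regulators 1 of 8 rose and 1 fell (median 0.01), a called share of 25% that is near the 20.9% of all tested loci, so the count says nothing particular of the list. Tnfaip3, the ubiquitin-editing inhibitor of NF-kB, rose by 1.09 ± 0.09, and the ubiquitin ligase gene Trim21, itself interferon-inducible, fell by 0.67 ± 0.09. The IRF2-binding corepressor genes Irf2bp1 (-0.09 ± 0.06) and Irf2bp2 (0.14 ± 0.08) did not pass. The higher count was 2 without KO replicate 2.

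Markers of cell types that express Irf4, Irf5 and Irf8 were measured beside them, and their part in the results was not tested. Their counts stand beside 11.9% called higher and 8.97% lower over all tested loci. Of 12 B lineage markers 5 were lower and 0 higher, with Cd79a at -0.86 ± 0.19. The summed level was 91836 and 64859 in KO against 119845 and 115741 in WT. That count was 0 without either WT library and 10 without either KO library. In the dendritic cell list 2 of 12 fell, the interferon-inducible Bst2 (-1.50 ± 0.09) and Tcf4 (-0.30 ± 0.08), and 0 rose, a called share of 16.7% that is no more than the 20.9% of all tested loci. Its summed level was 19610 and 23654 in KO against 21012 and 23074 in WT, so the groups overlapped. Without KO replicate 1 the dendritic list had 4 higher members, and without either WT library 1 lower member. In the monocyte and macrophage list 6 of 12 fell and 2 rose. Cd14 (1.66 ± 0.24) and Emr1 (1.003 ± 0.12) were up, and C1qa (-0.98 ± 0.26) and C1qb (-0.97 ± 0.20) were down. Cx3cr1 (-0.91 ± 0.19), Ly86 (-0.72 ± 0.09), Ms4a6c (-0.63 ± 0.06) and Csf1r (-0.36 ± 0.06) were down as well. The summed level was 35312 and 28791 in KO against 34647 and 33258 in WT, and 2 members fell without either WT library. C1qa lost its call in 7 of 14 other settings (adjusted p up to 0.202, limma without WT replicate 2) and C1qb in 2, those without a WT library. T and NK markers gave 4 of 12 lower and 0 higher, led by Cd4 (-1.54 ± 0.23), with sums of 7737 and 6539 in KO against 9571 and 8632 in WT, and their count was 1 without WT replicate 1 and 2 without WT replicate 2. In the progenitor list 3 of 8 fell, Cd93 (-0.70 ± 0.05), the locus with Cd34 (-0.83 ± 0.05) and that with Meis1 (-0.40 ± 0.08), and 5 fell with upper-quartile scaling, with CPM and without KO replicate 1. Most of the T and NK sum came from Nkg7, with 6245 and 5241 in KO against 7061 and 6251 in WT, which was not called. No marker on these lists was at 0 in all libraries.

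The nearest tested loci on either side of Irf7, Irf9, Irf4 and the Irf3 locus were not called. Phrf1, which ends 0.437 kb from Irf7, had 8408 and 8371 in KO against 8387 and 8602 in WT (-0.02 ± 0.05), and Deaf1, 30.8 kb from it on the other side, was 0.09 ± 0.11. Rnf31, 0.313 kb before Irf9, was -0.17 ± 0.08, and Rec8, 8.14 kb after it, was 0.83 ± 0.36, neither called. Dusp22 (-0.11 ± 0.16) and Exoc2 (0.15 ± 0.08), on either side of Irf4, were not called. Of the 16 neighbours 2 were called, both higher, which is no more than the 20.9% called over all tested loci: Enpp6, 139 kb from Irf2 (1.03 ± 0.25), and Tspan33, 84.6 kb from the locus of Irf5 (0.67 ± 0.15). Leaving out WT replicate 1 gave a higher count of 0, KO replicate 1 gave 1, and KO replicate 2 gave 3, and no neighbour was lower except 1 without KO replicate 2 and 1 with upper-quartile scaling, CPM or DESeq2.

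Within 500 kb of Irf7, 2 of 39 tested loci were higher and 3 lower, a smaller share than the 20.9% called over all tested loci. The interferon-induced membrane protein genes Ifitm1 (-1.41 ± 0.27) and Ifitm3 (-0.88 ± 0.10) fell there and their paralog Ifitm6 rose (1.04 ± 0.11). Ifitm2 (0.11 ± 0.10) and Ifitm5 (0.67 ± 0.44), in the same window, did not pass, and how the counting divided reads among such close copies is uncertain. Within 500 kb of Irf9, 3 of 31 were higher and 5 lower, near that share. Among those lower were the proteasome activator genes Psme2 (-0.28 ± 0.06) and Psme1 (merged with Fam158a, -0.44 ± 0.05) and the necroptosis kinase gene Ripk3 (-0.57 ± 0.07), while Ltb4r1 rose (0.75 ± 0.05). Around Irf4 none of 5 was called. These named loci in the windows were picked after their values were seen.

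**Figure D4:**
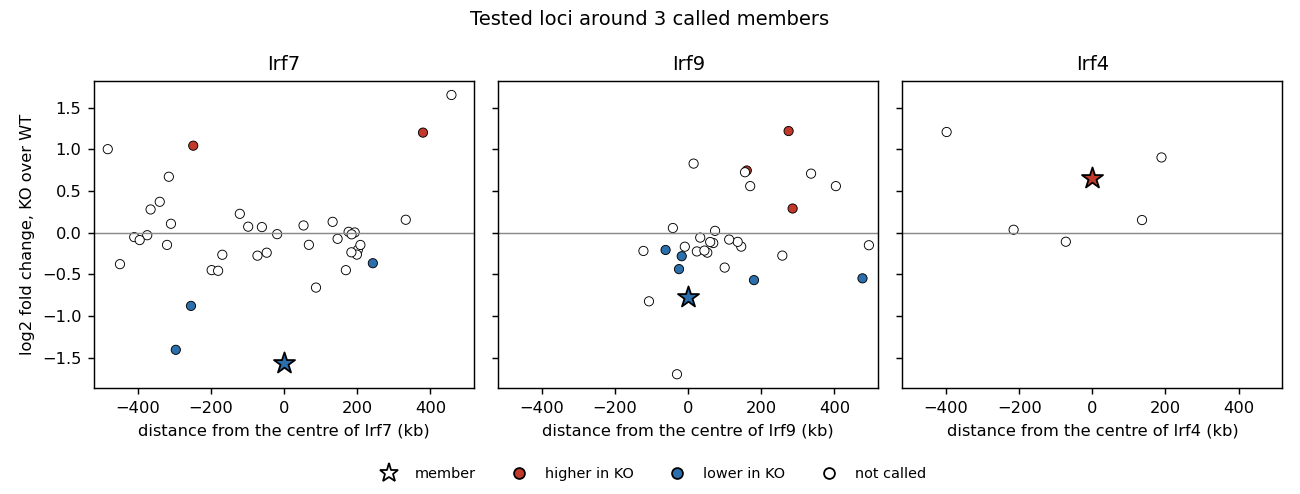
Log2 fold change of KO over WT (vertical axis) of all tested loci within 500 kb of the centre of Irf7, Irf9 and Irf4 (horizontal axis, distance in kb); stars are the members, red points were higher in KO, blue points lower and white points not called. The loci next to Irf7 lie near 0 while Irf7 lies at -1.57.

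Profiles most like those of the called members were found by the distance between log2 values centred over the 4 libraries. Closest to Irf7 were Dmkn (distance 0.142) and Bst2 (distance 0.150), which had 820.1 and 740.2 in KO against 2195 and 2212 in WT. Closest to Irf9 were Katnal2 (distance 0.0308), with 16 to 20 reads in any library, and Abhd14b (distance 0.0526; -0.72 ± 0.14). Closest to Irf4 were Polm (merged with a second name of the gene, distance 0.0144, 0.66 ± 0.13) and Plce1 (merged likewise, distance 0.0460), with 9 to 29 reads in any library. Hs2st1 (merged likewise, distance 0.00851) and Siva1 (distance 0.0197) were closest to the locus of Irf3. Katnal2, Plce1, Hs2st1 and Siva1 were not called. These likenesses rest on 4 libraries and carry no test.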

How the data were processed

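Per the submitters' processing notes, reads were aligned with STAR 2.3.1t to mm9. The sources used here name no counter, annotation or strand handling. The deposited signal is a read count scaled by the authors with a single factor for each library: 100% of values are whole multiples, within 0.001 of a read, of the smallest value above 0 (0.758 and 0.825 in KO, 1.30 and 1.22 in WT), which gave back the reads. Rows that join neighbouring loci with a comma (4893) were left out.

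Loci reaching 10 in 2 or more libraries were fitted with limma 3.58.1 (mean-variance trend, genotype only) on log2(value + 1) in R 4.3.3, which understates changes of low loci, with Benjamini-Hochberg adjustment over all of them and a threshold of 0.05. P-values measure the spread between libraries, which may be partly technical. That spread also holds the Xist and Y-linked split, since the libraries of each genotype differ in it. On recovered reads edgeR 4.0.16 (quasi-likelihood, TMM or RLE), DESeq2 1.42.0 and limma-voom were alternatives; edgeR with TMM called 2839 loci and limma 2875. The fit was also run on simulated counts. These were drawn independently for each library, without the Xist and Y-linked split, so they cannot show how the fit behaves with it. Members and 13 gene lists were chosen with earlier results of these data known. Named genes were the members, up to 4 called genes per list with the largest change, nearest neighbours, and the 2 closest profiles without clone names; other list genes are given for roles or because they did not pass. Counting errors cover counting only. Some items that the naming rule selects are not reported here.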

Additional observations from a re-analysis of the deposited data

How the results depend on the processing

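Irf7 (-1.68 to -1.45), Irf9 (-0.83 to -0.72) and Irf4 (0.49 to 0.82) kept their direction and their call in all 14 alternatives, with adjusted p of at most 0.00805, 0.0149 and 0.0305. The lower call of the Irf3 locus was lost in 7 of 14 (-0.28 to -0.18, adjusted p 0.0229 to 0.282), which are edgeR with TMM or RLE, limma-voom, no filter and leaving out KO replicate 1, WT replicate 1 or WT replicate 2. Irf1, Irf2 and Irf5 passed in none, and Irf2 changed sign with upper-quartile scaling, with CPM and without WT replicate 1, and Irf5 without WT replicate 1. Leaving out 1 library gave 1 higher and 2 to 4 lower members, 603 to 1714 higher and 266 to 1542 lower loci among all tested, and 0 to 3 higher and 0 to 1 lower neighbours; the low counts among all tested loci are those without a WT library. Upper-quartile scaling gave 1901 lower loci and CPM 2049, so 42.6% and 39.6% of calls were higher, against 57.0% in the fit reported. One neighbour was called lower with upper-quartile scaling, CPM or DESeq2 (1 each), and 1 was called higher with no filter. The IRF9 targets gave 16 to 18 lower loci and the IRF1 targets 10 to 16.

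The labels give both genotypes replicate numbers 1 and 2 but do not say that a number marks a shared animal, batch or day. The number does go with sex-linked transcripts: Xist was high in the libraries numbered 1 and Y-linked transcripts in those numbered 2. A replicate block is therefore also a block on that split. The difference between KO replicates 1 and 2 correlated with that between WT replicates 1 and 2 (0.246 over tested loci). The Xist and Y-linked loci were among those loci, so the value is not separate from that split. How much of it they supply was not tested. With a replicate block 1 member was higher and 4 were lower, Irf8 being added (-0.28, adjusted p = 0.0279), and 3439 loci were called. Counting error is at most 3.13% for any member, and each genotype has 2 libraries.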

Other observations

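Rows that join a member with a neighbouring locus were not part of the comparisons. The joined row of Rnf31 and Irf9 had 0 and 0 reads in KO and 3 and 8 in WT, that of Irf1 and Gm12216 had 5 and 4 in KO and 2 and 0 in WT, that of the Irf3 locus and Scaf1 had 5 and 7 in KO and 1 and 3 in WT, and 2 further rows had 0 to 2 reads in any library.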
